A study of Mus musculus with 12 samples.

Results

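Stem and progenitor regulators are transcription factors and surface receptors that keep early blood cells immature and set which lineage they enter. The set described here was named by gene symbol, as Kit, Flt3, Cd34, Sox4, Erg, Lmo2, Hhex, Myb, Runx1 and Gfi1. Of these 10 genes, 9 had a row among the 12151 genes of the table, and Kit, the receptor for stem cell factor, had none. The rule uses gene names and no measured value. The cells were mouse bone marrow pre-B cells transformed with BCR-ABL1, which model acute lymphoblastic leukemia of B cells (B-ALL), and polyadenylated RNA was sequenced in 12 libraries. The question was how activated β-catenin changes expression in cells with and without the Ikaros factors Ikzf1 and Ikzf3.

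All 4 groups carried BCR-ABL1 and the Ctnnb1Ex3fl/+ genotype, in which exon 3 of 1 allele of the β-catenin gene is floxed, and both vector groups were described as treated with 4-hydroxytamoxifen (4-OHT). ERT2 WT cells had received nontargeting guides and a vector for ERT2, the tamoxifen-binding receptor domain without Cre. Cre-ERT2 WT cells had the same guides and a vector for the inducible recombinase, which removes exon 3 and with it the sites that mark β-catenin for destruction. ERT2 KO and Cre-ERT2 KO cells carried guides against Ikzf1 and Ikzf3 in place of nontargeting ones, with the same pair of vectors. Each group had 3 libraries. No group had Cre-ERT2 without the floxed allele. Activation of β-catenin below means Cre-ERT2 against ERT2 libraries of the same genotype label, and effects of Cre itself cannot be told apart from it. Lines were grown from single edited cells and sorted for GFP, and the sources do not say which line gave which library, nor whether replicates were separate lines or cultures, so that p-values measure only the spread between these libraries, which may be technical. Donor mice were 6 to 12 weeks old. The protocol names day 1 after 4-OHT, but for chromatin experiments, and gives no time for the RNA.

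Values are normalized log2 expression as deposited, not divided by gene length, so each gene is compared only with itself. Adjusted p-values come from limma with Benjamini-Hochberg adjustment over all genes, with calls made below 0.05. Library medians lay between 9.06 and 9.11, and the sequencing depth is unknown because the table holds no counts. Ikzf1 mRNA was 1.01 ± 0.02 higher (log2 change ± SE, 3 against 3 libraries) in ERT2 KO than in ERT2 WT libraries and Ikzf3 mRNA was 0.65 ± 0.04 lower. Gene-level mRNA cannot show whether an edit removed the protein, so the KO groups are called by their label. The study reports checking the deletion at the protein level, by western blot in its single-cell-derived clones. All 14 B lineage markers were in the table, with Cd79a at 14.31 to 15.16 and Pax5 at 13.44 to 13.77 in group means. Their summed unlogged level was 155688 to 160513 in the 6 WT libraries and 105649 to 109834 in the 6 libraries labelled KO. Abundant genes weigh most in this sum, and not all 14 markers moved with it. None of 8 erythroid and megakaryocytic and none of 6 stromal markers had a row. Of 10 T lineage markers only Cd5 and Lck had a row, and of 10 myeloid markers only Fcgr3, Itgam and Lyz2. In bulk RNA, fewer cells of a type and less RNA per cell cannot be told apart.

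Sox4 is a high-mobility-group transcription factor needed for early B cell development, Myb keeps progenitors dividing and uncommitted, and Runx1 is the DNA-binding subunit of core-binding factor, which opens the B lineage program together with Ebf1. β-catenin has no DNA-binding domain of its own and in its canonical role acts on genes through TCF/LEF factors. Ikaros factors bind DNA through zinc fingers and restrain stem and progenitor programs as lymphocytes mature. The study reports that in B-ALL cells β-catenin also bound Ikzf1, Ikzf3 and repressive NuRD proteins. Lmo2, a LIM-only protein that does not itself bind DNA, bridges Tal1 or Lyl1 to partner proteins in stem cell complexes.

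Sox4, Myb and Runx1 all rose with β-catenin activation, in WT cells and again in cells labelled KO, and all fell when libraries labelled KO were compared with WT. Sox4 (ENSMUSG00000076431, chr13:28948919-28953713, minus strand, GRCm38) read 12.72, 12.79 and 12.67 in ERT2 WT libraries and 13.02, 13.13 and 13.08 in Cre-ERT2 WT libraries. In ERT2 KO libraries it read 12.25, 12.23 and 12.24, and in Cre-ERT2 KO libraries 12.60, 12.61 and 12.66. Every Cre-ERT2 library was above every ERT2 library of its own genotype, and the lowest of all were the ERT2 KO libraries. The rise in unlogged expression was 27.6% in WT and 30.4% in KO cells (log2 change 0.35 ± 0.03 and 0.38 ± 0.03 SE, adjusted p = 2.48e-05 and 8.8e-06). Between genotypes Sox4 fell by 28.5% from ERT2 WT to ERT2 KO libraries (log2 change -0.48 ± 0.03, adjusted p = 7.74e-08).

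Myb (ENSMUSG00000019982, chr10:21124935-21160984, minus strand) read 12.95, 12.98 and 13.00 in ERT2 WT libraries and 13.43, 13.40 and 13.40 in Cre-ERT2 WT libraries. Its values were 12.60, 12.52 and 12.50 in ERT2 KO libraries and 12.95, 12.93 and 12.95 in Cre-ERT2 KO libraries. The group with both changes thus lay on the level of the group with neither, while the other two groups lay above and below them. Activation raised Myb by 0.43 ± 0.03 in WT and by 0.40 ± 0.03 in KO cells on the log2 scale (adjusted p = 4.31e-07 and 4.21e-07). The KO label went with a lower level in ERT2 libraries (log2 change -0.44 ± 0.03, adjusted p = 1.67e-08) and with a log2 change of -0.46 ± 0.03 in Cre-ERT2 libraries (adjusted p = 8.95e-09).

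Runx1 (ENSMUSG00000022952, chr16:92601466-92826149, minus strand) read 12.27, 12.39 and 12.33 in ERT2 WT libraries and 12.62, 12.61 and 12.63 in Cre-ERT2 WT libraries. It read 12.13, 11.93 and 11.98 in ERT2 KO libraries and 12.37, 12.25 and 12.34 in Cre-ERT2 KO libraries. Its replicates were the widest of the trio in the ERT2 KO group (SD 0.10, n = 3, against 0.006 for Sox4), and the groups compared still did not overlap. The log2 rise with activation was 0.29 ± 0.05 in WT cells (adjusted p = 0.00148) and 0.31 ± 0.05 in KO cells (adjusted p = 0.000833), or 22.0% and 23.7% unlogged. The KO label went with a log2 change of -0.32 ± 0.05 in ERT2 and -0.30 ± 0.05 in Cre-ERT2 libraries (adjusted p = 7.45e-05 and 0.000128). For single genes an exact two-sided permutation test of 3 against 3 libraries cannot go below p = 0.1, which it gave for Sox4, Myb and Runx1 in these 4 comparisons.

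**Figure D1:**
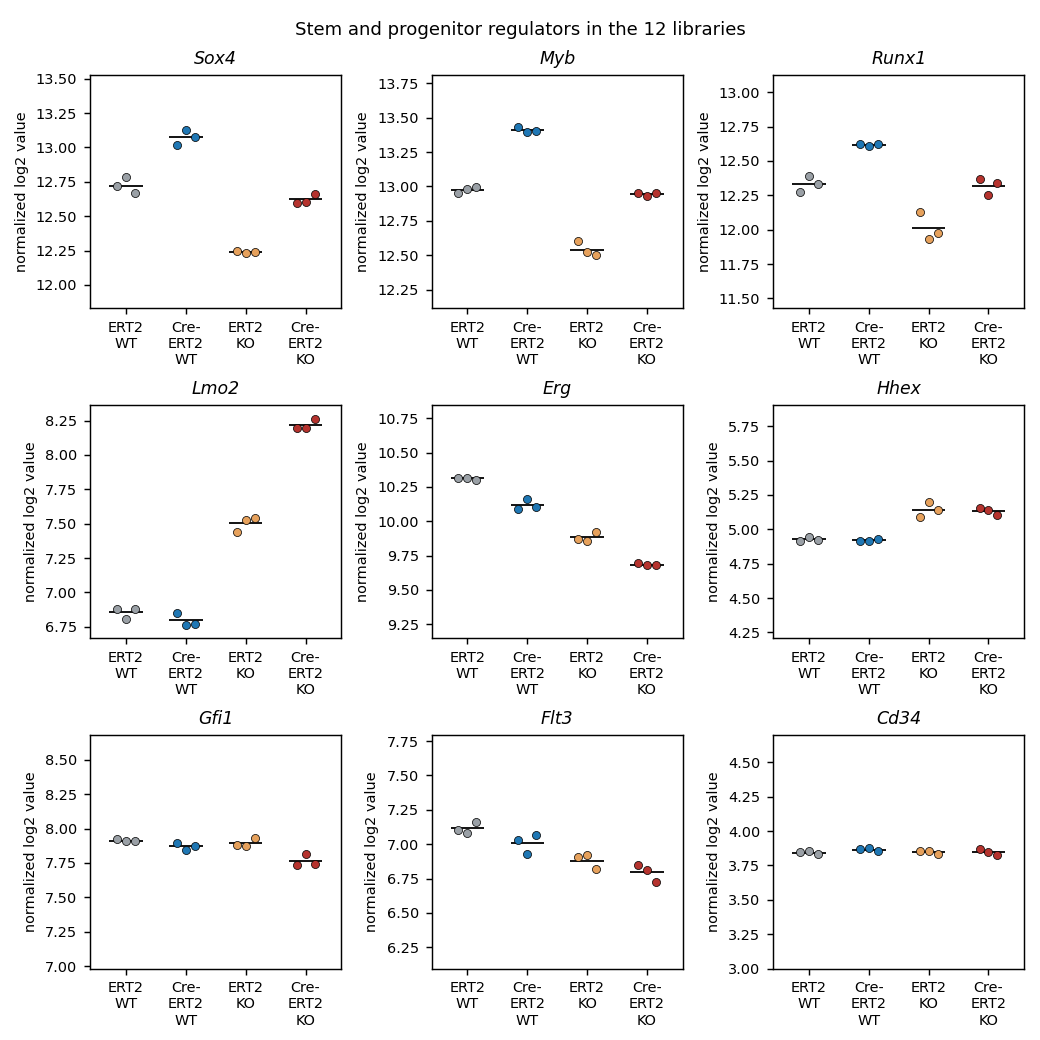
Normalized log2 value (vertical axis, every panel spanning the same range of log2 units) of the 9 regulators in each of the 12 libraries, by group. Points are libraries and the line is the mean of 3; Sox4, Myb and Runx1 share a low ERT2 KO and a high Cre-ERT2 WT group, Lmo2 stands highest in Cre-ERT2 KO at 8.20 to 8.27, and Cd34 lies flat between 3.82 and 3.88.

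The 2 directions nearly offset each other in the trio. Cells with both changes were set against cells with neither, a comparison added after the values were seen. The log2 difference of Cre-ERT2 KO from ERT2 WT libraries was -0.03 for Myb (95% interval -0.09 to 0.02, adjusted p = 0.299) and -0.01 for Runx1 (-0.11 to 0.09, adjusted p = 0.848), and in both the groups overlapped. Sox4 remained lower at -0.10 (-0.17 to -0.03, adjusted p = 0.0228). That call was lost without ERT2 WT replicate 2 (log2 change -0.07, adjusted p = 0.106), without Cre-ERT2 KO replicate 1 (-0.09, adjusted p = 0.074) and without Cre-ERT2 KO replicate 2 (-0.09, adjusted p = 0.0663), and quantile normalization ended it too (-0.07, adjusted p = 0.0857). Centring each library on its median called Myb lower (-0.07, adjusted p = 0.0319). The order of the groups was therefore ERT2 KO lowest and Cre-ERT2 WT highest in all 3 genes, with the other groups between them as neighbours that were not shown to differ for Myb and Runx1.

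The stretches in front of the annotated starts of these genes are shown for 3 reasons. TCF/LEF factors are the canonical partners of β-catenin, the KO guides target Ikaros factors, and Sox4 and Runx1 are DNA-binding factors of the set itself. The sequences are RefSeq's for GRCm38.p6, 5′ to 3′ on the strand of the gene, and end before the earliest annotated transcript start in the window. Runx1 has a distal and a proximal promoter, the latter inside the gene, and both are given. Capitals mark GGGAA or its reverse complement TTCCC, the core of Ikaros binding sites.
Sox4 (chr13:28953714-28953949, minus strand): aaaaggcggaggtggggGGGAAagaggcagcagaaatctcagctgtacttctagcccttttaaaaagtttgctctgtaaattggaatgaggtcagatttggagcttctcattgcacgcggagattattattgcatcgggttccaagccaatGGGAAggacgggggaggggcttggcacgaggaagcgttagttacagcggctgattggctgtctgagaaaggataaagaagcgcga
Myb (chr10:21160985-21161234, minus strand): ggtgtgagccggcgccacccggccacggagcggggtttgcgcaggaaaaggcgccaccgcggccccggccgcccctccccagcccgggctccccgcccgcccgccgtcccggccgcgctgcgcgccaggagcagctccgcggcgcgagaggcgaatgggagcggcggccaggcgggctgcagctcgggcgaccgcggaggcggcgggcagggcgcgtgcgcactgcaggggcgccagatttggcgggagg
Runx1, distal (chr16:92826150-92826324, minus strand): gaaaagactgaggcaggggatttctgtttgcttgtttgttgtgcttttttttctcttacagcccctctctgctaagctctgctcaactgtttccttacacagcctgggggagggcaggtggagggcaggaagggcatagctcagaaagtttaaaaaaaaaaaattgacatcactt
Runx1, proximal (chr16:92697330-92697579, minus strand): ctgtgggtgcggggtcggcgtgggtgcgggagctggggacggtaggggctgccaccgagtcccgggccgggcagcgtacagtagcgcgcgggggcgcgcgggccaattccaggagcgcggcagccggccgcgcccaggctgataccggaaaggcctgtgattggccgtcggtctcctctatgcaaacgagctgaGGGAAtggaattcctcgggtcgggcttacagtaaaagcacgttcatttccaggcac
The search covered the 250 bases before each RefSeq start, on both strands, for 4 strings. These were the TCF/LEF core CTTTGAT, the shorter CTTTGT shared by TCF/LEF and Sox proteins, GGGAA, and the Runx core TGTGGT. The first pair share the letters CTTTG. The Sox4 window held GGGAA at positions -233 and -99 from the start, the proximal Runx1 window at -56, and the distal Runx1 window at -30, beyond the printed stretch. The Myb window held none of the 4 strings, and the strings other than GGGAA were absent from the windows of the trio. Among the 12 windows of the 8 regulators with an entry, 6 held GGGAA, and 1, that of Flt3, held CTTTGAT, as ATCAAAG at -180. Of 32851 RefSeq windows of the same length 56.2% held GGGAA, 3.21% CTTTGAT, 16.5% CTTTGT and 14.0% TGTGGT, so GGGAA before Sox4 and Runx1 is a common finding. A match is only a description of the letters.

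Across the set, β-catenin activation in WT cells raised 3 of the 9 genes (Sox4, Myb, Runx1), beside 5.93% of all genes, and lowered 1 (Erg), beside 5.95%. In cells labelled KO it raised 4, Lmo2 being the addition, beside 7.27% of all genes, and lowered 2 (Erg and Gfi1), beside 5.33%. The median log2 change over the 9 genes was -0.008 in WT and -0.001 in KO cells, beside 2.18e-05 and -0.000412 over all genes, the middle genes being Hhex and Cd34, neither called. The KO label went with 2 higher genes (Lmo2, Hhex) in ERT2 libraries, beside 29.8% of all genes, and with 5 lower (Sox4, Myb, Erg, Runx1, Flt3), beside 29.3%. In Cre-ERT2 libraries the counts were 2 higher, beside 30.4%, and 6 lower with Gfi1 added, beside 28.6%. With so many genes called between the genotypes, a call there is common. Centring each library on its median shifted the calls over all genes in these comparisons from 3616 higher and 3559 lower to 2866 and 4747 in ERT2 libraries, and from 3688 and 3473 to 2983 and 4789 in Cre-ERT2 libraries. The members' calls under that scaling were the same, except that Cd34 became called lower in Cre-ERT2 libraries (log2 change -0.05, adjusted p = 0.00425).

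Lmo2 (ENSMUSG00000032698, chr2:103957986-103981878, plus strand) was the regulator whose response to β-catenin depended on the genotype label. It read 6.88, 6.81 and 6.88 in ERT2 WT libraries and 6.85, 6.77 and 6.77 in Cre-ERT2 WT libraries. It read 7.44, 7.52 and 7.54 in ERT2 KO libraries and 8.20, 8.20 and 8.27 in Cre-ERT2 KO libraries. The WT groups overlapped, and both KO groups stood clear of them and of each other. In WT cells the log2 change with activation was -0.06 ± 0.04 (95% interval -0.14 to 0.02, adjusted p = 0.338), whereas in KO cells Lmo2 rose by 0.72 ± 0.04 (adjusted p = 4.9e-08), or 64.4% unlogged. The difference of the 2 effects, tested as an interaction term, was 0.78 ± 0.05 on the log2 scale (95% interval 0.67 to 0.89, adjusted p = 2.48e-06). Between genotypes Lmo2 was 56.3% higher in ERT2 KO than in ERT2 WT libraries (log2 change 0.64 ± 0.04, adjusted p = 9.87e-09) and 168% higher in Cre-ERT2 KO than in Cre-ERT2 WT libraries (log2 change 1.42 ± 0.04, adjusted p = 4.03e-12).

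That interaction was called for 1 of the 9 regulators, beside 2.71% of all genes higher and 1.82% lower. For the others the interval of the difference rests on the spread between these libraries, which may be technical. It is unadjusted and may not bound what separate lines would show. It ran from -0.07 to 0.14 for Sox4, from -0.11 to 0.05 for Myb and from -0.12 to 0.16 for Runx1, and from -0.09 to 0.08 for Erg. Gfi1 came nearest to a call at -0.09 (-0.18 to 0.0004, adjusted p = 0.291). The summed unlogged level of the 3 myeloid markers was 231 to 241 in WT, 385 to 406 in ERT2 KO and 437 to 468 in Cre-ERT2 KO libraries. Lyz2, the lysozyme gene of myeloid cells, had group means of 7.41, 7.38, 8.40 and 8.61 in the ERT2 WT and Cre-ERT2 WT and then in the ERT2 KO and Cre-ERT2 KO libraries. Lyz2 carried the sum, while Itgam and Fcgr3 were lower with the KO label (log2 changes -0.15 and -0.36 in ERT2, -0.18 and -0.26 in Cre-ERT2 libraries, all called), so 1 of the 3 markers moved with Lmo2 and 2 moved the other way. The part of such cells in the Lmo2 result was not tested, and Csf1r, Mpo, Elane and Csf3r, which define myeloid cells, had no row.

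**Figure D2:**
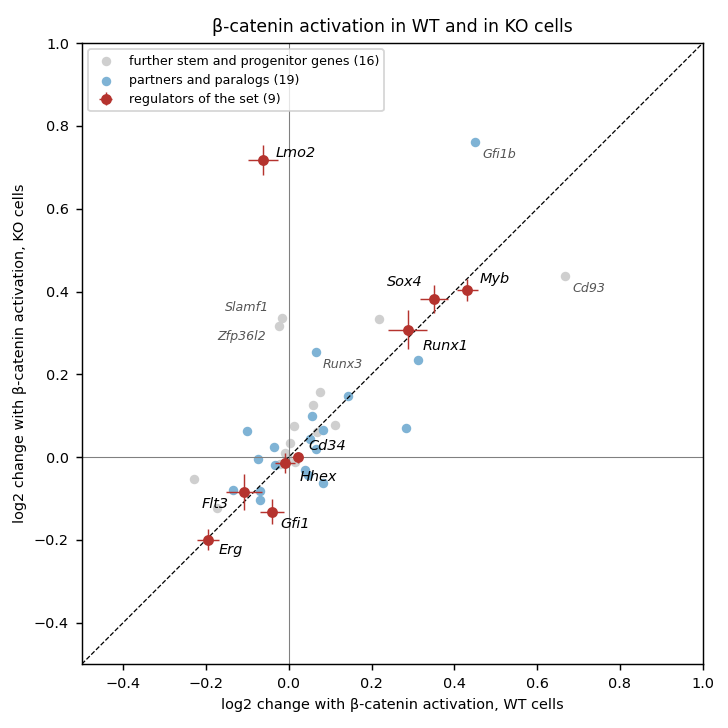
Log2 change with β-catenin activation in WT cells (horizontal axis) against that in cells labelled KO (vertical axis) for the 9 regulators with SE bars and for both related gene lists. On the dashed line the 2 changes are equal; Sox4, Myb, Runx1 and Erg lie on or near it, and Lmo2 lies above it at -0.06 and 0.72.

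Erg, an ETS factor of stem cells and megakaryocytes that is altered in some B-ALL, moved against the trio upon activation and with it between genotypes. Erg (ENSMUSG00000040732, chr16:95359169-95586593, minus strand) read 10.32, 10.32 and 10.30 in ERT2 WT libraries and 10.09, 10.16 and 10.10 in Cre-ERT2 WT libraries. Values were 9.87, 9.86 and 9.93 in ERT2 KO libraries and 9.69, 9.68 and 9.68 in Cre-ERT2 KO libraries. All 4 groups were separate from one another, falling in the order just given. Activation lowered Erg with a log2 change of -0.20 ± 0.03 in each genotype (adjusted p = 0.00038 in WT and 0.000259 in KO cells), and the KO label went with -0.43 ± 0.03 in each vector group (adjusted p = 2.24e-08 and 1.92e-08). From cells with neither change to cells with both, Erg mRNA fell by 35.2% (log2 change -0.63 ± 0.03, adjusted p = 5.03e-10).

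Hhex, a homeobox factor of lymphoid progenitors, was called between genotypes and not with activation. It ranged from 4.91 to 4.94 over the 6 WT libraries and from 5.09 to 5.20 over the 6 libraries labelled KO. The log2 change between genotypes was 0.22 ± 0.02 in ERT2 and 0.21 ± 0.02 in Cre-ERT2 libraries (adjusted p = 6.67e-06 and 8.11e-06). With activation the change was -0.01 in both genotypes, with intervals of -0.06 to 0.04 in WT and -0.07 to 0.04 in KO cells. Its values are low, and a compression of low values would understate both changes. Over the alternatives that tested it, the genotype change stayed called. It ran from 0.086 to 0.24 in ERT2 and from 0.083 to 0.23 in Cre-ERT2 libraries.

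Gfi1, a zinc-finger repressor that limits stem cell division and steers lymphoid and myeloid choice, ranged from 7.84 to 7.93 over the 9 libraries that did not carry both changes. The 3 Cre-ERT2 KO libraries were below all of these at 7.73, 7.82 and 7.74. Activation in KO cells changed it by -0.13 ± 0.03 (adjusted p = 0.0113), a call lost when only the 6 KO libraries were fitted (adjusted p = 0.0616). In WT cells the change was -0.04 ± 0.03 (adjusted p = 0.441). The KO label went with -0.11 ± 0.03 in Cre-ERT2 libraries (adjusted p = 0.00759) and with -0.02 ± 0.03 in ERT2 libraries (adjusted p = 0.666), where quantile normalization gave a called -0.08.

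Flt3, the receptor tyrosine kinase of lymphoid progenitors, fell with the KO label. It ranged from 7.08 to 7.16 in ERT2 WT, 6.93 to 7.07 in Cre-ERT2 WT, 6.82 to 6.92 in ERT2 KO and 6.73 to 6.85 in Cre-ERT2 KO libraries. The KO groups overlapped each other, and neither reached the WT groups. The log2 change with the KO label was -0.23 ± 0.04 in ERT2 and -0.21 ± 0.04 in Cre-ERT2 libraries (adjusted p = 0.000488 and 0.00106). With activation it was -0.11 ± 0.04 in WT and -0.08 ± 0.04 in KO cells, neither past the threshold (adjusted p = 0.147 and 0.261). Cd34, the sialomucin that marks stem and progenitor cells, lay between 3.82 and 3.88 in all 12 libraries and was not called in any of the 6 comparisons as fitted.

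**Figure D3:**
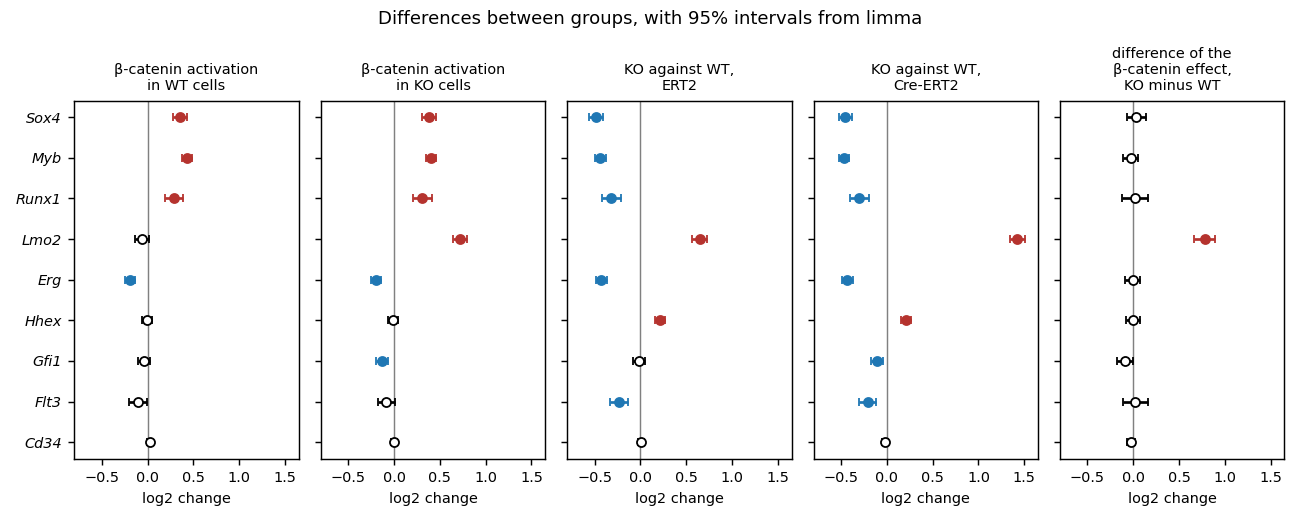
Log2 change (horizontal axis) of the 9 regulators in the 5 planned comparisons, with 95% intervals from limma. Filled points are called at an adjusted p under 0.05, red higher and blue lower; open points are not called, and in the rightmost panel Lmo2 alone is filled, at 0.78.

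In the comparison of both changes with neither, 2 regulators were higher (Lmo2 and Hhex), beside 30.3% of all genes, and 4 were lower (Erg, Flt3, Gfi1 and Sox4), beside 28.7%. Lmo2 differed most, at 157% above the level of cells with neither change (log2 change 1.36 ± 0.04, adjusted p = 6.27e-12). Gfi1 fell by 9.72% and Flt3 fell by 19.8% (log2 change -0.15 ± 0.03 and -0.32 ± 0.04). Centring each library on its median shifted the calls over all genes here from 3676 higher and 3488 lower to 2795 and 5089.

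The genes most like the trio were ranked by Pearson's r over the 12 libraries among genes whose SD was at least 50% of the member's own, and these points share 4 groups and 1 normalization. For Sox4, among 2441 genes, they were Ezh2 (r = 0.988), Dpp4 (0.988), Prkcb (0.986), Esyt1 (0.985) and Lgals9 (0.985). For Myb, among 2332 genes, they were Itga4 (0.991), Ezh2 (0.988), Lgals9 (0.987), Mpp1 (0.987) and Dpp4 (0.987). For Runx1, among 3874 genes, Myb itself came first (0.981), before Dpp4 (0.974), Pfkfb3 (0.970), Rab5b (0.969) and Itga4 (0.968). Sox4 stood at rank 6 of the genes like Myb, and Runx1 at rank 8. The trio is described together for its shared pattern in these same libraries, so its ranks among each other are no separate evidence. Ezh2, the methyltransferase of Polycomb complex 2, had group means of 13.81 in ERT2 WT, 14.22 in Cre-ERT2 WT, 13.34 in ERT2 KO and 13.67 in Cre-ERT2 KO libraries. Myc, by contrast, fell with activation in both genotypes (log2 change -0.62 ± 0.02 in WT and -0.31 ± 0.02 in KO cells) and was higher in ERT2 KO than in ERT2 WT libraries (1.10 ± 0.02). For Sox4, Myb and Runx1 these signs were the other way round. The fall of Myc upon activation was smaller in KO cells (interaction 0.31 ± 0.03, adjusted p = 2.7e-05). The study reports that deleting both Ikaros factors largely undid the repression of Myc by β-catenin.

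Partners and paralogs of the regulators were followed in a list of 25 genes, of which 19 had a row. Activation in WT cells raised 5 and lowered 1 of them, beside 5.93% and 5.95% of all genes, and in KO cells it again raised 5 and lowered 1, beside 7.27% and 5.33%, with median log2 changes of 0.05 and 0.02 beside 2.18e-05 and -0.000412 over all genes. Gfi1b, the paralog of Gfi1, rose by 0.45 ± 0.05 in WT and by 0.76 ± 0.05 in KO cells. Tcf12, an E protein that pairs with Tal1 and Lyl1, rose by 0.31 ± 0.03 and 0.23 ± 0.03, and the ETS factor Fli1, closest relative of Erg, by 0.14 ± 0.03 and 0.15 ± 0.03. Thus Gfi1b and Fli1 rose where their relatives Gfi1, in KO cells, and Erg fell. Crebbp, the acetyltransferase that binds both Myb and β-catenin, rose by 0.28 ± 0.06 in WT cells, and Runx3 by 0.25 ± 0.03 in KO cells.

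Between genotypes, 6 of the 19 were higher and 6 lower in ERT2 libraries, beside 29.8% and 29.3% of all genes, and likewise in Cre-ERT2 libraries, beside 30.4% and 28.6%, so these counts were near the shares over all genes (median log2 changes 0.03 and 0.005, beside 0.002 and 0.002 over all genes). Sox12, a SoxC relative of Sox4, was higher by 1.16 ± 0.04 and 1.23 ± 0.04 on the log2 scale, opposite to Sox4. Tal1, the basic helix-loop-helix partner of Lmo2, was higher by 0.74 ± 0.03 and 0.80 ± 0.03, and Lyl1, its paralog, by 0.51 ± 0.04 in ERT2 libraries, so Lmo2 and both of these were higher with the KO label. Ldb1, which joins Lmo2 complexes, was not called between genotypes in either vector group. With activation in KO cells, where Lmo2 rose, Tal1 and Lyl1 were not called (log2 changes -0.08 and -0.06). Ldb1 was lower there (-0.08, adjusted p = 0.0347). In both changes against neither, Ldb1 was lower (-0.09, adjusted p = 0.00348), while Tal1 and Lyl1 were higher (0.67 and 0.45). Cbfb, the subunit that stabilizes Runx1 on DNA, was lower as well (log2 changes -0.40 ± 0.04 and -0.41 ± 0.04), in the direction of Runx1. The interaction was called for Gfi1b (0.31 ± 0.08, adjusted p = 0.0391) and Runx3 (0.19 ± 0.04, adjusted p = 0.0243). Omitting any 1 of 10 of the 12 libraries lost the call for Gfi1b, with adjusted p up to 0.0965, and any 1 of 6 lost it for Runx3, with adjusted p up to 0.0678. Against cells with neither change, those with both had 8 of the 19 higher and 6 lower, beside 30.3% and 28.7% of all genes.

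**Figure D4:**
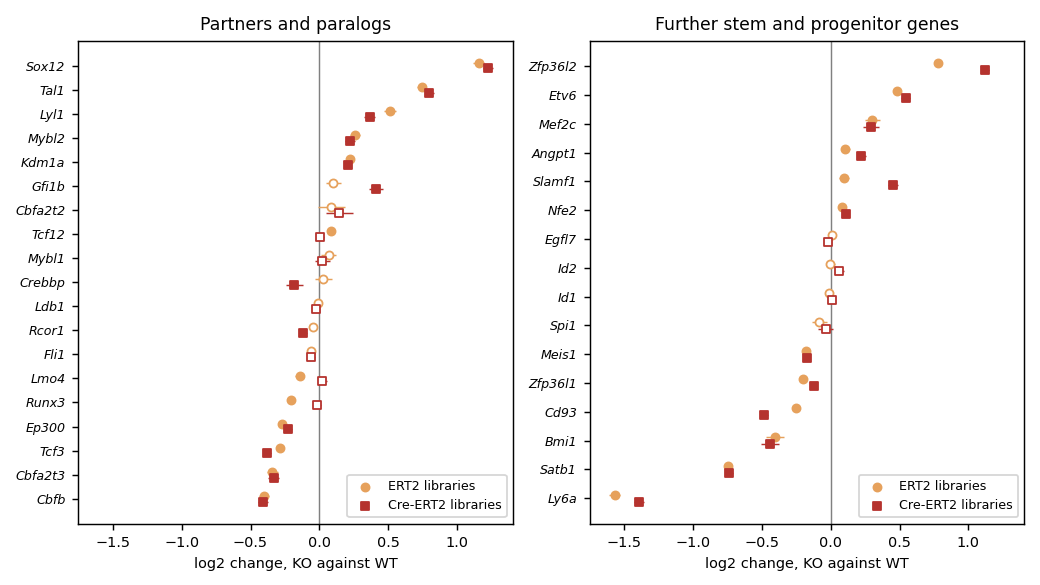
Log2 change of libraries labelled KO against WT (horizontal axis, SE bars) for 19 partners and paralogs and 16 further stem and progenitor genes, in ERT2 (circles) and Cre-ERT2 (squares) libraries. Open symbols are not called; Sox12 at 1.16 and 1.23, Tal1 and Zfp36l2 stand to the right, and Ly6a at -1.57 and -1.39 to the left.

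A further 28 stem and progenitor genes had 16 with a row. Activation raised 2 and lowered 1 in WT cells, beside 5.93% and 5.95% of all genes, and raised 6 and lowered none in KO cells, beside 7.27% and 5.33%. The median log2 changes were 0.007 and 0.07, beside 2.18e-05 and -0.000412 over all genes. Cd93, a surface receptor of early progenitors and pro-B cells, rose by 0.67 ± 0.03 and 0.44 ± 0.03, and Angpt1, the Tie2 ligand, by 0.22 ± 0.03 and 0.33 ± 0.03. Between genotypes 6 were higher and 6 lower in each vector group, beside 29.8% and 29.3% of all genes in ERT2 and 30.4% and 28.6% in Cre-ERT2 libraries. Ly6a, the gene of the stem cell antigen Sca-1, was lower with log2 changes of -1.57 ± 0.04 and -1.39 ± 0.04, and Satb1, a chromatin organizer of lymphoid progenitors, with -0.75 ± 0.03 and -0.74 ± 0.03. Zfp36l2, an RNA-binding protein that promotes mRNA decay, was higher by 0.78 ± 0.03 and 1.12 ± 0.03, and Etv6, an ETS repressor needed by stem cells, by 0.48 ± 0.03 and 0.54 ± 0.03.

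The regulators of the trio act early in B cell development, and 12 genes of that program all had a row. Activation raised 3 and lowered 5 of them in WT cells, beside 5.93% and 5.95% of all genes, and raised 3 and lowered 4 in KO cells, beside 7.27% and 5.33% (median log2 changes -0.06 and -0.07, beside 2.18e-05 and -0.000412 over all genes). The KO label went with 2 higher and 7 lower genes in ERT2 libraries, beside 29.8% and 29.3% of all genes, and 2 higher and 8 lower in Cre-ERT2 libraries, beside 30.4% and 28.6% (median log2 changes -0.35 and -0.32, beside 0.002 and 0.002 over all genes). Bcl2, a survival factor, moved as the trio did, up by 0.65 ± 0.04 and 0.47 ± 0.04 with activation and changed by -0.97 ± 0.04 in ERT2 KO against ERT2 WT libraries. Dntt, the terminal transferase of early B cells, rose by 0.30 ± 0.02 and 0.77 ± 0.02 with activation and changed by -0.87 ± 0.02 with the KO label in ERT2 libraries. Pax5, which holds B cell identity, went against the trio upon activation, at -0.22 ± 0.04 and -0.30 ± 0.04. Blk, a B cell Src-family kinase, had the largest change of the 12, at -3.81 ± 0.04 in ERT2 libraries. The B lineage marker sum given above was lower in libraries labelled KO and weighs abundant genes most. Among these were Cd24a and Cd79a, with log2 changes of -1.07 and -0.79 in ERT2 libraries. There 9 of the 14 markers were lower and 3 higher, beside 29.3% and 29.8% of all genes. The higher ones were Rag1, Rag2 and Cd22 (0.32, 0.38 and 0.46), and Pax5 and Ebf1 were not called. Between genotypes the sum moved with the falls of Sox4, Myb, Runx1, Erg and Flt3. With activation it rose in WT cells, from 155688 to 157397 in ERT2 WT to 158316 to 160513 in Cre-ERT2 WT libraries. In KO cells it fell, from 109221 to 109834 in ERT2 KO to 105649 to 106593 in Cre-ERT2 KO libraries, where the trio rose. The part of the sum in the changes of these genes was not tested. Lck and Cd5, the T lineage markers with a row, both rose with activation, as the trio did. With the KO label Lck was lower (log2 changes -1.45 and -1.93 in ERT2 and Cre-ERT2 libraries) and Cd5 was higher (0.13 and 0.64, both called). Their summed unlogged level was 551 to 584 in ERT2 WT, 943 to 999.7 in Cre-ERT2 WT, 281 to 286 in ERT2 KO and 436 to 449.9 in Cre-ERT2 KO libraries, while the defining T cell genes Cd3e, Cd3d and Cd3g had no row. The 3 of 4 plasma cell markers with a row summed to 1935 to 2011 in ERT2 WT libraries and to 1816 to 1926 in the other libraries. Within that sum Prdm1, a repressor that drives plasma cell differentiation, rose with activation by 0.66 ± 0.02 in WT and 0.64 ± 0.02 in KO cells, and Sdc1 fell (log2 changes -0.17 ± 0.03 and -0.11 ± 0.03). The part of such cells in the rise of the trio was not tested.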

How the data were processed

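RNA was measured in 12 libraries, grouped by the sample titles. Per the labels and the study's methods, the authors ran Salmon 1.4.0 for quantification, STAR 2.7.6 for alignment to GRCm38 and DESeq2 1.30.1 downstream. They deposited 1 normalized log2 value per gene and library for 12151 genes. The transformation and any filter are not given in the sources used here, and a compression of low values would understate changes of weakly expressed genes. No counts or fold changes were in the table, and every column was matched to a library.

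A linear model with 4 group means was fitted with limma 3.58.1 (R 4.3.3, trended eBayes) to all libraries, and p-values were adjusted by Benjamini-Hochberg over 12151 genes. A call is an adjusted p under 0.05. The fit was tested on simulated data. Changes are differences of log2 values ± SE, and 95% intervals are unadjusted. All 10 genes of the rule are described. Of each other list, at most 4 called genes per comparison with the largest change were named. Ldb1, further values of Tal1 and Lyl1, and the markers that break down the B lineage sum were added after their values were seen. Also named were the 5 genes most like Sox4, Myb and Runx1 and the checks Ikzf1, Ikzf3, Ctnnb1 and Myc. Members and lists were chosen with earlier results of these data known. The labels do not state that replicate numbers pair the libraries, and the correlation of same-numbered deviations (-0.12 to 0.33) did not settle it. Ctnnb1 mRNA, whose exon 3 is not resolved by gene-level values, changed by 0.06 in WT and 0.13 in KO cells with activation. Alternatives covered scaling, pseudocounts, filters, variance priors, thresholds and omitted libraries. Gene positions are from GENCODE M21, on the authors' build, and promoter sequences from RefSeq (GRCm38.p6), in which 8 of the 9 regulators matched.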

Additional observations from a re-analysis of the deposited data

Results flagged for a closer look

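The effect of β-catenin activation differed between cells labelled KO and WT, by the interaction term, for Lmo2 among the regulators (log2 difference 0.78). Among their partners it differed for Gfi1b (0.31) and Runx3 (0.19), among further stem and progenitor genes for Slamf1 (0.35), Zfp36l2 (0.34) and Cd93 (-0.23), and among early B cell genes for Dntt (0.47) and Ebf1 (-0.19). Slamf1, a surface receptor of stem cells, had group means of 7.04 in ERT2 WT, 7.02 in Cre-ERT2 WT, 7.13 in ERT2 KO and 7.47 in Cre-ERT2 KO libraries, and Zfp36l2 of 11.18, 11.16, 11.96 and 12.28 in the same order. Both thus shared with Lmo2 a rise upon activation in KO cells and no call in WT cells. Cd93 rose in both genotypes and less in KO cells. Gfi1b and Runx3 lost the call with the replicate block and upon omission of single libraries.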

How the results depend on the processing

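Of 32 called values of the 9 regulators, 31 kept direction and call when each library was left out in turn, the exception being Sox4 in both changes against neither. Members called numbered 4, 6, 7, 8 and 1 in the planned comparisons and 6 in the added one. Over all genes the calls numbered 1443, 1531, 7175, 7161 and 550, and 7164 in the added one. Dropping genes with a mean under 8 gave 4 in ERT2 and 4 in Cre-ERT2 libraries, 0 for the interaction and 2 for both against neither, because Flt3, Cd34, Lmo2, Hhex and Gfi1 were then not tested. Over all genes kept, these comparisons then had 5126, 5096, 337 and 5055 calls.
With the replicate block the counts were 4, 6, 7, 8, 1 and 6, and the block lost no call of a regulator. Over all genes the calls with the block were 1361, 1374, 7089, 7108, 424 and 7105. The labels do not state a pairing, and 6 of 12 libraries correlated best with their own number, which cannot decide whether libraries were paired. Directions turned only for changes near 0 that were not called as reported. Centring each library on its median gave Cd34 -0.028 between genotypes in ERT2 libraries and -0.036 in both against neither, the latter called (adjusted p = 0.0304), and quantile normalization gave -0.0034 and -0.0049 for these and 0.026 for Runx1 in both against neither. Over omitted libraries the log2 change of Cd34 ran from -0.0028 to 0.013 between genotypes in ERT2 libraries, from -0.012 to 0.012 with activation in KO cells and from -0.0073 to 0.017 in both against neither. That of Hhex with activation in KO cells ran from -0.039 to 0.015, and that of Runx1 in both against neither from -0.0396 to 0.021. The interaction ran from -0.018 to 0.017 for Erg, -0.015 to 0.059 for Flt3, -0.031 to 0.023 for Hhex, -0.049 to 0.0028 for Myb and -0.020 to 0.079 for Runx1. Lmo2's interaction ranged from 0.63 to 0.81 over its 21 alternatives and stayed called in each of them. A minimum change of 0.2 removed the calls of Erg with activation in both genotypes, of Gfi1 with activation in KO cells, in Cre-ERT2 libraries and in both against neither, and of Sox4 in both against neither, and an adjusted p under 0.01 removed Gfi1 with activation in KO cells and Sox4 in both against neither. With depth unknown and the transformation not stated, no counting interval could be given, and Cd34 and Hhex had the lowest values of the set. The cause of these changes was not tested.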
